A study of Mus musculus with 2 samples.

Results

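A genome assembly holds, besides its chromosomes, contigs: assembled stretches whose chromosome is unknown (unplaced) or whose chromosome is known but not their place on it (unlocalized), and patches, which correct or add sequence at a known place. Members here were the Hi-C read pairs of mouse embryonic stem (ES) cells in which at least 1 end lay on a sequence other than chr1 to chr19, chrX, chrY or chrM. There were 34174 such pairs among 5793078 in the library of wild-type ES cells and 39488 among 11430966 in the library of Lin28a knockout ES cells, spread over 87 sequences of 109 named in the lists. The design compared higher-order chromatin structure between the genotypes, with 1 library per group, so no test of the genotype was possible and intervals below cover counting error only.

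The wild-type group carried no stated allele, and the knockout group lacked Lin28a, an RNA-binding protein of pluripotent cells. Per the study, ES lines were E14 or, where stated, V6.5, and knockout ES cells came from picked clones after CRISPR/Cas9 cutting in an exon or were derived from knockout mice. Which of these sources, lines and clones went into the libraries was not given in the sources used here. Both groups grew for 2 days in LIF/2i on gelatin with MEF feeder cells, and the part of feeder chromatin in the pairs was not tested. The labels state that 2 replicates were made per group, but the lists do not name them.

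In Hi-C, DNA that lies close together in the nucleus is cut, ligated and sequenced as a pair, and contact frequency falls steeply with distance along a chromosome. A stretch that the assembly leaves without a position therefore pairs most often with the chromosomal neighbours it has in the cell. Contigs of the mouse assembly are rich in recent duplications and in sequence next to centromeres. Mouse chromosomes are acrocentric, so the first assembled bases of each one lie beside its centromere.

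Contig ends of several sequences are shown here because they carry the positions described below. For each of the 5 contigs with the most pairs among those with a peak on chromosome 1, the restriction fragment with the most wild-type ends, counted by mapped position, is printed from the GRCm38 reference, 5′ to 3′ on the forward strand, up to 300 bases. Capitals mark the bases that differ from the best matching place on the assembled chromosomes.

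GL456211.1:174723-175022, 70 wild-type and 54 knockout ends in its fragment: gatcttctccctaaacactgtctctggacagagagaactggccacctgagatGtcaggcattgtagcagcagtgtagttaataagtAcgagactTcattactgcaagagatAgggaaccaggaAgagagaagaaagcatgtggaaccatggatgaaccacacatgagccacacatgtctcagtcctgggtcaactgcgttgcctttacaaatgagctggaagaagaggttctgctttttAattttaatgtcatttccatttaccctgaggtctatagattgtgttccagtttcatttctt
GL456212.1:67767-68015, 53 and 46 ends: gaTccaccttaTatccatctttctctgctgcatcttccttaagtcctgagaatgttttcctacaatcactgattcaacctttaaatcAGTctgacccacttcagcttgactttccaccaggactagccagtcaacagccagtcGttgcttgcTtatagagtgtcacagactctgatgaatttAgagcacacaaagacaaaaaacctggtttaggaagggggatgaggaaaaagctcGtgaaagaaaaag
GL456210.1:120193-120370, 52 and 18 ends: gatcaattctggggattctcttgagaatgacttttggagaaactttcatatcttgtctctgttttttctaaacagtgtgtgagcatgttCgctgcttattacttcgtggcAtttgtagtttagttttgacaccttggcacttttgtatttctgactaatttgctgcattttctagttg
GL456221.1:140117-140416, 69 and 41 ends: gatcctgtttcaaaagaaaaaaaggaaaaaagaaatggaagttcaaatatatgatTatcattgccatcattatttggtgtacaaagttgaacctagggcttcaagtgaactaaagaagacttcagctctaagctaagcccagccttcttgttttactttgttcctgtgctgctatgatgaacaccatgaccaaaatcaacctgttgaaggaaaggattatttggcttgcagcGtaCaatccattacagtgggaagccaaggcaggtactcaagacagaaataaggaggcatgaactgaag
GL456239.1:2877-3176, 32 and 23 ends: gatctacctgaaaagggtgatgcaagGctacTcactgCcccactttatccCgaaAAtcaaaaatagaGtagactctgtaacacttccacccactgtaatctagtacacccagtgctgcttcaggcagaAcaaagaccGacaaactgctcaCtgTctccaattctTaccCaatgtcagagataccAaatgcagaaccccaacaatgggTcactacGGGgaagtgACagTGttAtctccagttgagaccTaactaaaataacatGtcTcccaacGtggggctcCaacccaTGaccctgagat

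The first 4 fragments matched chromosome 1, at chr1:85608525-85608823 (97.99% identity, 6 mismatches), chr1:85185149-85185398 (96.0%, 9 mismatches), chr1:85606132-85606309 (98.88%, 2 mismatches) and chr1:85634158-85634457 (99.0%, 3 mismatches). The place on GL456212.1's line lies in Gm38510 and the other places lie in Sp110 or Sp140. The fragment of GL456239.1 had no copy there. Its best match was chr16:3012170-3012470, at 89.4% identity with 29 mismatches and 1 further base without a partner, next to the assembled start of chromosome 16.

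Pair lists were sorted by the chromosome of the first end, and contig pairs were held for chromosome 1 up to 90862049 in the wild-type library, and for all of chromosome 1 and chromosome 2 up to 42080638 in the knockout library. Libraries were compared over the part of chromosome 1 held in both lists and scaled to the trans pairs of that part with chromosomes 2 to 19, which numbered 2235886 in wild-type and 1718683 in knockout. Within it, 16746 wild-type and 13578 knockout pairs had a contig as second end. This made 7490 (95% Poisson interval 7377 to 7604) and 7900 (7768 to 8034) contig pairs per 1000000 trans pairs, a ratio of knockout to wild-type of 1.06 (95% exact binomial interval 1.03 to 1.08). Read names gave an instrument and a lane, and reads that shared both are called a run here. Runs gave 7470 and 7697 per 1000000 for wild-type, and 7906 and 7779 for knockout cells. The smaller knockout run came from another instrument than the other runs. The smaller wild-type run thus lay between the values of the libraries. The ratio was 1.1 when chromosomes 6 and 8, where the knockout library had more pairs, were left out of the scaling, and 1.01 (0.916 to 1.11) over the smaller run of each library.

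In all, 16 contigs reached 100 pairs over both libraries and held 96.2% of the wild-type and 96.3% of the knockout contig pairs of this part of chromosome 1. The 4 unlocalized contigs of chromosome 1 alone made up 68.65% in wild-type and 68.69% in knockout cells. GL456211.1, 241735 bases long, had 3753 wild-type and 2980 knockout pairs, and GL456212.1, of 153618 bases, had 2741 and 2312. GL456210.1 had 2543 and 2043 pairs, and GL456221.1 had 2459 and 1992. These 4 contigs were thus ranked alike in both libraries.

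Among contigs without a chromosome, JH584304.1 had 2188 wild-type and 1931 knockout pairs. GL456239.1 had 620 and 477 pairs, and GL456372.1, the shortest of the 16 contigs at 28664 bases, had 550 and 420. Unlocalized contigs of other chromosomes followed at a distance. GL456233.1, which is assigned to chromosome X and carries Tmlhe, Vamp7 and Spry3, had 190 and 156 pairs, and JH584299.1, which is assigned to chromosome 5 and carries a family of PRAME-like genes, had 160 and 83. The 7 patches among the 16 ranged from 59 to 219 wild-type and from 49 to 155 knockout pairs, with the WSB/EiJ patch of chromosome 11 at the top. The remaining 71 sequences held 635 wild-type and 502 knockout pairs together, none of them more than 76 over both libraries.

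**Figure D1:**
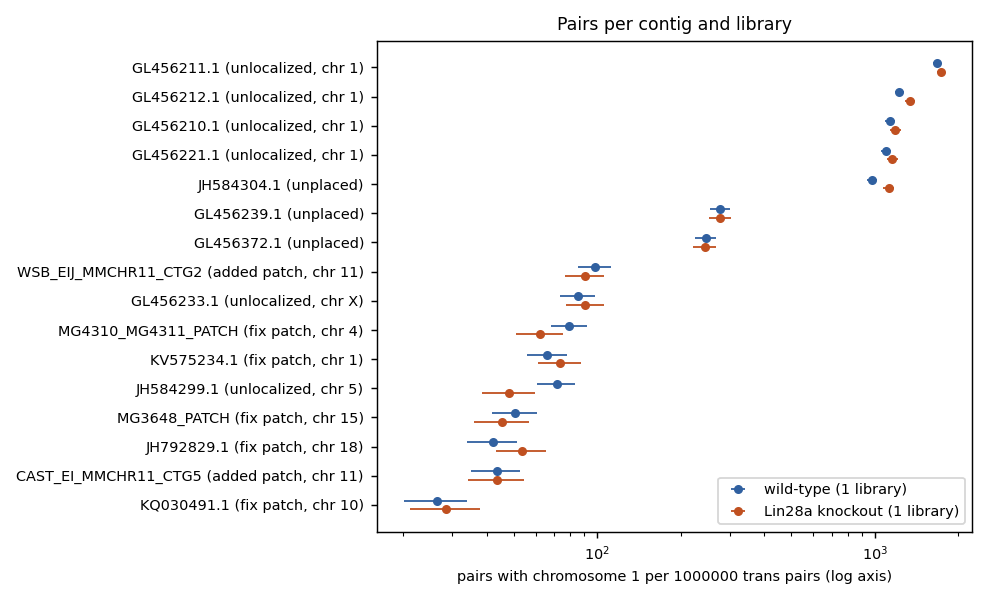
Pairs between each of the 16 contigs and the part of chromosome 1 held in both lists, per 1000000 trans pairs with autosomes, on a log axis, with 95% Poisson intervals and 1 library per colour. The 4 unlocalized contigs of chromosome 1 and JH584304.1 lie together at the top, and the wild-type and knockout points of a contig lie close to each other, farthest apart for JH584299.1.

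The number of pairs per base separated 7 contigs from the other 9. Autosomes had a median of 1.04 pairs with this part of chromosome 1 per kb of known sequence in wild-type and 0.775 in knockout cells. The 4 unlocalized chromosome 1 contigs had 11.9 to 17.8 pairs per kb in wild-type cells and 9.63 to 15.1 in knockout cells. These are pairs within their own chromosome, so the autosomes are no measure for them. Windows of 100 kb on chromosome 1 itself had a median of 53.3 and 43.3 pairs per kb. Only longer pairs that left the window were counted there, and the 4 contigs lay below these medians. GL456372.1 had 23.5 and 17.9 per kb, GL456239.1 had 15.5 and 11.9, and JH584304.1 had 19.1 and 16.9. The other 9 of the 16 lay below the autosomes in both libraries, at 0.168 to 0.605 pairs per kb in wild-type cells. GL456233.1 stood at 0.584 and 0.641 times the autosomal median. Over all 16 contigs the median was 0.572 times the autosomal one in wild-type and 0.585 times in knockout. Counted per restriction fragment, JH584304.1 led, at 35.1 times the autosomal median in wild-type cells and 41.2 times in knockout cells. It has 149 fragments, and of its 114452 bases the last with an end was 68498 in wild-type and 68539 in knockout cells.

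Contig ends were mapped less surely than others. Both ends had a mapping quality of 30 or more, on a scale that ran from 11 to 42 in these lists, in 72.7% of wild-type and 71.2% of knockout contig pairs, against 85.99% and 84.7% of trans pairs with autosomes. On GL456210.1, GL456211.1, GL456212.1 and GL456221.1 the median quality of the contig end was 30 or 31 in both libraries, and 3.5% to 5.46% of wild-type ends reached the highest score. These 4 contigs have copies with at least 95% identity on chromosome 1 over 99.8% to 100% of their length. GL456239.1, with such a copy on any chromosome over 16.9% of its length, had a median of 40, and GL456233.1, with 9.28%, had 42. The share of contig ends at 30 or more was nevertheless lower for GL456239.1, at 71.45% in wild-type and 69.8% in knockout cells. The 4 contigs were at 75.7% to 80.5% and 73.4% to 81.8%. The part of copies on chromosomes in the numbers of pairs per base was not tested.

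A contig was called different between libraries where its scaled ratio reached 1.5 or fell to 0.667 with an interval that left out 1. None of the 16 contigs was called, where 5.92% of 20451 windows of 100 kb on the other chromosomes with at least 100 pairs passed the same rule. At a ratio limit of 2 these were 0% of the contigs and 0.2% of the windows. The windows include those of chromosomes 6 and 8, where the knockout library had more pairs. At a median of 0.96 and 0.71 trans pairs per kb, they were also shallower than the contigs with the most pairs. The part of either in the share of called windows was not tested. Ratios of knockout to wild-type ran from 0.675 to 1.27. JH584299.1 was nearest to the limit, at 0.675 (0.511 to 0.885), and became the only contig called, at 0.641 (0.47 to 0.866), among pairs with mapping quality of 30 or more at both ends. The intervals of JH584304.1, at 1.15 (1.08 to 1.22), and of GL456212.1, at 1.1 (1.04 to 1.16), lay above 1. GL456211.1 (1.03), GL456210.1 (1.05), GL456221.1 (1.05), GL456239.1 (1.0) and GL456372.1 (0.993) had intervals that included 1. With 1 library per group these values compare the libraries and not the genotypes.

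Pairs within 1 contig were held in full in both libraries. There were 15466 in wild-type and 12221 in knockout cells, and JH584304.1 held 7485 and 6467 of them. Of 22 sequences with at least 100 such pairs over both libraries, 2 were called different, against 0% of 868 windows of chromosome 1 counted in the same way. Those windows held, on average, more pairs than the called sequences, so their share is no background at the depth of these. Counts were scaled to trans pairs as above, and on this scale the windows of chromosome 1 together were at a ratio of 0.943. On the chromosome 14 patch MG3627_PATCH there were 97 wild-type and 25 knockout pairs, a ratio of 0.335 (0.207 to 0.525). All their ends lay between 114383 and 123345 of the patch, inside Dnah12, a gene for an axonemal dynein. Pairs of at least 1 kb within this stretch numbered 39 and 8 (0.267, 0.108 to 0.579) and those of less than 1 kb numbered 58 and 17. Pairs between chromosome 1 and the same patch numbered 23 and 19 in the compared part (1.08, 0.554 to 2.06). On chromosome 1 itself, pairs of less than 1 kb were fewer in the knockout library, at a ratio of 0.719, and those from 1 to 10 kb were at 0.954. GL456367.1 was the other called sequence, with 78 and 39 pairs (0.651, 0.431 to 0.967), an interval that includes the 0.943 of the windows. Its pairs of at least 1 kb numbered 57 and 32 (0.73, 0.458 to 1.15) and those of less than 1 kb numbered 21 and 7 (0.434, 0.156 to 1.06). Each part had fewer than the 100 pairs that the rule needs, so neither could be called alone. Whether the share of short pairs in each library has a part in these differences was not tested.

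Partners on chromosome 1 were placed in bins of 1 Mb, and each bin was compared with the number expected from the trans pairs of chromosomes 2 to 19. A contig had a peak where its top bin held at least 20 pairs, at least 3 times the expected number and a lower Poisson limit above 2 times. There were 7 contigs with a peak in at least 1 library and 6 in both, against 0.044% of the 100 kb windows of other chromosomes in wild-type and 0.0391% in knockout cells. These windows were shallower than the contigs with a peak in both libraries, with a median of 0.96 and 0.71 trans pairs per kb, and their median top bin stood at 3.56 and 4.08 times the expected number, so that the minimum of 20 pairs largely set their share. The 6 were GL456210.1, GL456211.1, GL456212.1, GL456221.1, GL456372.1 and GL456239.1. The first 4 of these, and the patch KV575234.1 with a peak in 1 library, are assigned to chromosome 1. A peak on their own chromosome was to be foreseen, and windows of other chromosomes are no background for it.

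The same top bin was found for 5 of them, from 85 to 86 Mb. This bin holds a repeat-rich cluster of immune genes, Sp110, Sp140 and Sp100, which encode nuclear body proteins with chromatin-reading domains, and their tandem relatives. The assembly has a gap of 100000 bases in it, at chr1:85347104-85447103. GL456210.1 placed 530 of its wild-type pairs in this bin where 23.2 were expected, which was 22.8 times (20.9 to 24.9), and 365 knockout pairs, 22.6 times (20.3 to 25.02). GL456211.1 was at 13.9 times (12.7 to 15.2) and 15.2 times (13.7 to 16.9). GL456212.1 was at 13.8 times (12.3 to 15.3) and 14.7 times (13 to 16.6), and GL456221.1 at 14.7 times (13.1 to 16.3) and 15.9 times (14.0 to 18.0). The intervals of the 2 libraries overlapped for each of these 4 contigs. Windows of 100 kb on chromosome 1 itself held a median of 30.63% of their pairs in their own bin in wild-type and 29.64% in knockout cells. Only longer pairs that left the window were counted for this. The low limits of their spread were 19.05% and 18.96%. In the 85 Mb bin GL456211.1, GL456212.1 and GL456221.1 lay below these limits, at 12.55% to 13.38% and 11.63% to 12.6%. GL456210.1 lay below the median in wild-type cells, at 20.84%, and below the low limit in knockout cells, at 17.87%. GL456372.1, at 28.36% and 23.57%, lay below the medians.

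GL456372.1 has no chromosome in the assembly. It placed 156 of 550 wild-type pairs in the same bin, 31.1 times the expected number (26.4 to 36.4), and 99 of 420 knockout pairs, 29.8 times (24.2 to 36.3). In both libraries this was above the value of each of the 4 contigs assigned to chromosome 1; its knockout interval overlapped that of GL456210.1. In the knockout library, where chromosome 2 was held in part, 673 of its 678 pairs were on chromosome 1. All of its pairs with contigs of known chromosome, 59 in wild-type and 50 in knockout cells, were with contigs of chromosome 1.

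Pairs at homologous positions were counted apart. Pairs whose contig end had an aligned copy within 5 kb of its chromosome 1 partner made up 1.16% to 2.91% of the pairs of these 5 contigs. Without them the 85 Mb bin stood at 11.6 to 28.7 times the expected number in wild-type and at 13.3 to 28.6 times in knockout cells. With mapping quality of 30 or more at both ends, GL456211.1 was at 12.1 and 13.4 times.

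**Figure D2:**
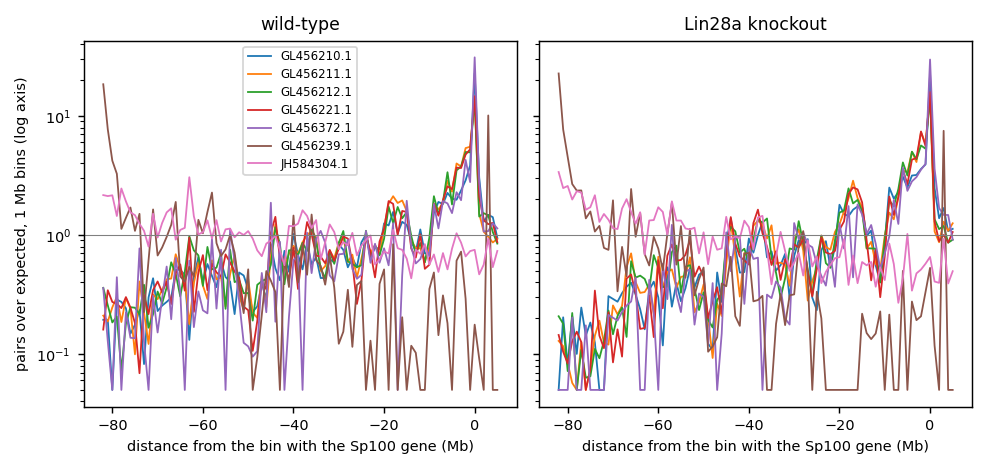
Pairs of 7 contigs in 1 Mb bins of chromosome 1 over the expected number, on a log axis, by distance from the bin that holds Sp100, with values below 0.05 drawn at 0.05. A peak at distance 0 is shared by 5 contigs. GL456239.1 rises to the left end and again 3 Mb to the right of the cluster. JH584304.1 falls from left to right with no peak.

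Pairs of the 5 contigs were concentrated toward that end of the compared part. From 80 to 90 Mb they held 42.6% to 52.7% of their wild-type pairs and 43.1% to 53.6% of their knockout pairs. From 3 to 43 Mb they were at 0.328 to 0.402 times the expected number in wild-type and 0.244 to 0.343 times in knockout cells. Profiles over the 88 bins, as log2 of pairs over expected, had Pearson correlations of 0.876 to 0.929 among the 4 unlocalized contigs in wild-type and of 0.906 to 0.949 in knockout cells. GL456372.1 correlated with them at 0.74 to 0.755 and 0.799 to 0.84. These correlations are over bins of the same chromosome and the same library, and are given as a description.

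Far contacts of the 5 contigs were lower in the knockout library. Of their partners from 3 to 80 Mb, 11.9% (11.1 to 12.7) lay in the first 20 Mb in wild-type cells and 7.7% (7.0 to 8.46) in knockout cells. The assembled sequence around them moved in the same direction. The shares of the 1 Mb bins from 83 to 88 Mb ran from 9.29% to 11.5% in wild-type and from 6.08% to 7.56% in knockout cells.

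At a finer scale the 5 contigs fell on opposite sides of the gap. In the 100 kb before it, GL456221.1 had 65 wild-type pairs, 41.8 times the expected number (32.3 to 53.3), and in the 100 kb after it 24 pairs, 14.7 times (9.45 to 21.9). In knockout cells these were 50.5 times (38.1 to 65.6) and 19.8 times (12.4 to 29.9). GL456211.1 was at 38.4 times before and 14.5 times after the gap in wild-type cells. In knockout cells it was at 42.2 times (32.9 to 53.3) and 24.6 times (17.7 to 33.4). GL456212.1 was at 35.8 and 19.3 times in wild-type cells. In knockout cells it was at 34.9 times (25.5 to 46.8) and 20.9 times (13.8 to 30.4). For both contigs the intervals before and after the gap overlapped in knockout cells and not in wild-type cells.

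GL456210.1 and GL456372.1 had the opposite order. GL456210.1 was at 16.8 times (11.1 to 24.4) before the gap and 45.2 times (35.6 to 56.5) after it in wild-type cells, and at 16.7 and 52.5 times in knockout cells. GL456372.1 was at 11.5 times before it, from 4 pairs, and at 79.7 times (53.4 to 114.4) after it, from 29 pairs. In knockout cells it had 3 and 21 pairs, 12.8 and 89.4 times. Both had a second high window 200 to 300 kb before the gap, at 40.9 and 51.7 times in wild-type cells and 39.8 and 30.0 times in knockout cells.

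Over 500 kb on each side, 68.1% (64.0 to 72.1) of wild-type pairs of GL456211.1 lay before the gap, against 46.2% of autosomal trans pairs. The share was 62.9% for GL456212.1, 63.4% for GL456221.1, 38.1% (34.1 to 42.4) for GL456210.1 and 26.8% (20.01 to 34.4) for GL456372.1. In the knockout library the shares were 61.3% (56.3 to 66.1), 55.7%, 62.4%, 38.3% and 24.3%, against 47.7% of trans pairs. Leaving out homologous positions left each contig of both libraries on its side. With mapping quality of 30 or more, GL456212.1 was at 47.2% (39.6 to 54.8) in knockout cells, no longer apart from the trans pairs at 46.8%, and GL456211.1 was at 57.2% (50.4 to 63.8), below its 70.9% (65.5 to 75.9) in wild-type cells.

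**Figure D3:**
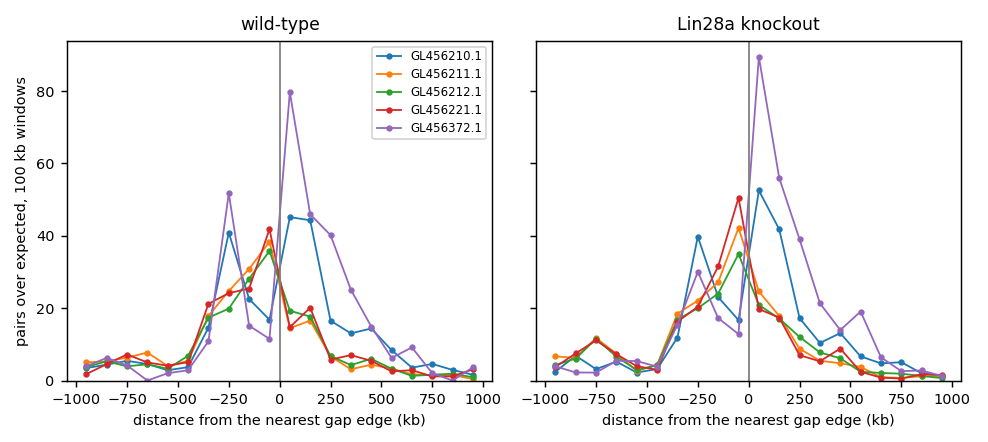
Pairs of 5 contigs in 100 kb windows over the expected number, by distance from the nearest edge of the assembly gap, which is drawn as a line at 0 although it spans 100 kb. GL456211.1, GL456212.1 and GL456221.1 are highest just before the gap, and GL456210.1 and GL456372.1 just after it, in both libraries.

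The 4 unlocalized contigs carry 17 protein-coding genes, of which 15 are annotated as relatives of Sp110, Sp140 or of Csprs, the component of Sp100-rs. Csprs itself lies on GL456221.1, with 966 wild-type and 772 knockout ends in pairs with chromosome 1, a ratio of 1.04 (0.945 to 1.14). LOC100041057, an SP140-like gene on GL456211.1, had 1130 and 919 ends (1.06, 0.969 to 1.16), and LOC102638047, an Sp110-like gene on GL456212.1, had 720 and 603 (1.09, 0.976 to 1.22). LOC100041903, which resembles an odorant receptor and spans 51833 bases of GL456212.1, had 1050 and 901 (1.12, 1.02 to 1.22). On GL456210.1, the SP140-like genes LOC100041708 and LOC101055672 had 398 and 342 ends and 401 and 302 ends. GL456372.1 carries the pseudogenes LOC673191, with 237 and 168 ends, and LOC100040974, with 139 and 124. Of 37 genes on the contigs described here with at least 100 ends over both libraries, 1 passed the ratio rule. It was LOC101055663, a Csprs-like gene on GL456210.1, with 108 wild-type and 55 knockout ends (0.663, 0.47 to 0.925). The other 36 ran from 0.813 to 1.3. The share of called windows of 100 kb was 5.92%.

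Pairs between these contigs were counted next. GL456211.1 and GL456212.1 shared 226 wild-type and 173 knockout pairs, GL456212.1 and GL456221.1 shared 201 and 139, and GL456211.1 and GL456221.1 shared 151 and 133. GL456210.1 had 120 and 97 pairs with GL456211.1, 77 and 61 with GL456212.1 and 61 and 54 with GL456221.1. The counts among the 3 contigs that peaked before the gap were the higher ones. Relative to the pairs each contig had with all others, they were at 3.22, 3.53 and 2.64 times the expected number in wild-type cells. In knockout cells they were at 3.39, 3.4 and 3.0 times, in the same order. GL456210.1 was at 3.13, 2.0 and 1.96 times in wild-type and at 3.09, 2.1 and 2.15 times in knockout cells. Of these only GL456210.1 with GL456211.1 lay above a value of the 3 contigs, that of GL456211.1 with GL456221.1. GL456372.1 had the most pairs with GL456210.1, 23 in each library, and 18 and 12 with GL456211.1. The 5 contigs shared 895 and 707 pairs in all, a scaled ratio of 1.03 (0.93 to 1.14).

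GL456239.1, a contig of 40056 bases with no chromosome and no gene in the annotation used, peaked at the other end. Its top bin was the first assembled one, from 3 to 4 Mb, with 116 wild-type pairs, 18.5 times the expected number (15.3 to 22.2), and 113 knockout pairs, 22.8 times (18.8 to 27.4). Counts fell along the chromosome, with 68, 31, 25 and 7 wild-type pairs in the next 4 bins and 53, 26, 15 and 11 knockout pairs. In the first 20 Mb lay 56.1% (52.1 to 60.1) of its wild-type and 65.6% (61.2 to 69.9) of its knockout pairs. In the knockout library 514 of its 539 pairs were with chromosome 1 and 25 with chromosome 2, 4.64% (3.02 to 6.77) where 22.9% were expected.

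GL456239.1 also paired with 1 segment far from that end. At chr1:88210001-88290000 it had 80 wild-type and 46 knockout pairs, and in 500 kb on each side of the segment it had 15 and 6. Per base this was 66.7 times (38.1 to 124.6) and 95.8 times (40.8 to 274.6) the flanks. With mapping quality of 30 or more at both ends 34 against 4 wild-type and 21 against 2 knockout pairs were left, 106.2 times (37.9 to 412.2) and 131.2 times (32.1 to 1155). The segment holds the whole of Ugt1a1, Mroh2a and Hjurp, and the last, shared exons of the other Ugt1a genes. Ugt1a genes encode glucuronosyltransferases, and Hjurp is the chaperone that deposits the centromeric histone CENP-A. The contig has no aligned copy on chromosome 1 with at least 95% identity.

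The segment was looked for where pairs of the contig had been seen, and its limits were then set from pairs within assembled chromosome 1. Its 10 kb windows each had at least 20 pairs with the first 5 assembled Mb over both libraries. The values for the contig and for these 5 Mb are therefore a description. The segment had 888 wild-type and 704 knockout pairs with the 5 Mb, and the flanks, which did not reach the minimum, had 223 and 91. Pairs with the segment were most frequent from 3 to 4 Mb, with 415 and 306 pairs, then fell to 250 and 222 from 4 to 5 Mb and to 48 and 28 from 7 to 8 Mb. The order of these bins was that of the contig. Pairs of the segment with 20 to 60 Mb were at 2.72 and 2.68 times the flanks.

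Trans pairs with autosomes were also more frequent on the segment than beside it, 6999 against 31435 in wild-type cells, 2.78 times per base (2.71 to 2.86), and 5019 against 23664 in knockout cells, 2.65 times (2.57 to 2.73). With mapping quality of 30 or more they were at 2.41 and 2.31 times. GL456239.1 reached a little beyond the segment, with 12 wild-type and 5 knockout pairs in the following 20 kb, where the first 5 Mb had 4 and 7. Among all contigs GL456239.1 had the most pairs with the segment, followed by 10 or fewer of any other contig in wild-type cells and by 13 of JH584304.1 in knockout cells.

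**Figure D4:**
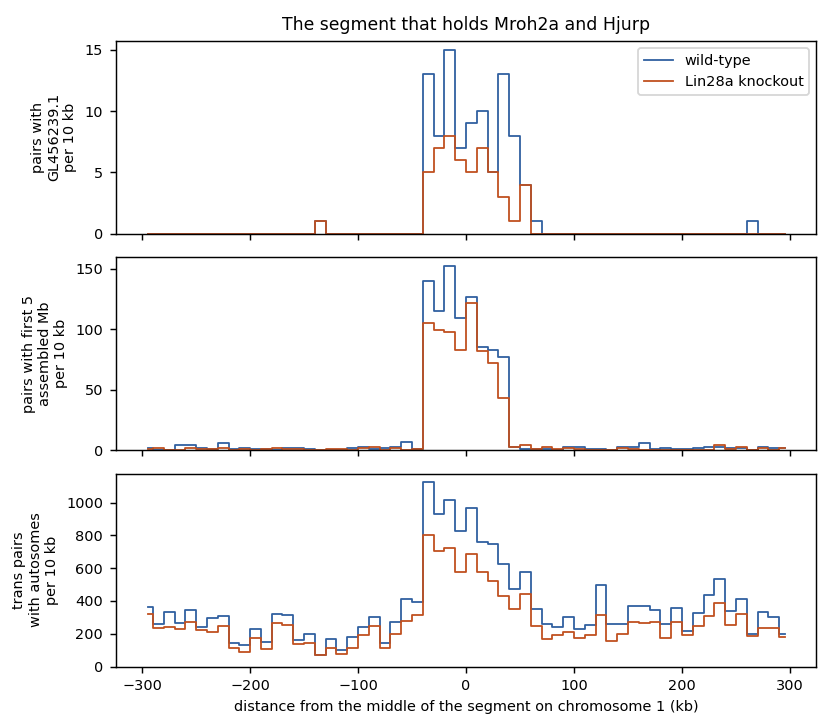
Pairs per 10 kb window of chromosome 1 around the middle of the segment with Mroh2a and Hjurp, from top to bottom with GL456239.1, with the first 5 assembled Mb of chromosome 1, and in trans with autosomes. All 3 counts rise at the left edge of the segment in both libraries, and the pairs with the first 5 Mb end 40 kb to the right of its middle.

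JH584304.1 is unplaced and carries a transcribed pseudogene of Sfi1 (LOC100861749), a centrosomal gene, and Pisd-ps3, a pseudogene of a phosphatidylserine decarboxylase. It had no peak on chromosome 1 in the compared part. Its top bin, from 4 to 5 Mb, was at 2.12 times (1.64 to 2.7) in wild-type and 2.48 times (1.93 to 3.14) in knockout cells. Its partners leaned to the start of the chromosome. In the first 20 Mb lay 33.5% (31.5 to 35.5) of its wild-type and 40.2% (38.0 to 42.4) of its knockout pairs, against 22.2% and 22.3% of all autosomal trans pairs. Trans pairs whose second end lay within the first 5 assembled Mb of its autosome were at 28.5% and 33.4%. JH584304.1 and these chromosome starts thus moved in the same direction between the libraries, and both lay above the autosomal share.

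Partners on chromosome 2 could be counted only in the knockout library, where 22.9% of the trans pairs that chromosomes 3 to 19 had with both came from chromosome 2. Of 43 contigs with at least 20 pairs, 7 had a chromosome 2 share whose interval lay above this value and 12 had one below it. The same held for 18.1% and 23.2% of 100 kb windows of chromosomes 3 to 19, shares near those of the contigs. Among contigs with at least 100 pairs, 3 had the highest shares. JH584304.1 had 2654 of 5354 pairs on chromosome 2, 49.6% (48.2 to 50.9), GL456383.1 had 179 of 204, 87.7% (82.4 to 91.9), and GL456392.1 had 163 of 188, 86.7% (81.0 to 91.2). No 100 kb window with at least 100 pairs exceeded 48.1%.

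For bins of the knockout library on chromosomes 1 and 2, the expected number was set from all pairs of a contig with both chromosomes. Times on chromosome 2 therefore also hold the contig's chromosome 2 share, unlike those for the compared part of chromosome 1. GL456383.1 and GL456392.1, both unplaced, had their top bin at the first assembled Mb of chromosome 2. They had 36 pairs there, 32.1 times the expected number (22.5 to 44.4), and 35 pairs, 33.8 times (23.5 to 47.0). They were at 2.72 and 4.52 times from 20 to 25 Mb. From 25 to 30 Mb they had 2 pairs each, at 0.257 times (0.031 to 0.929) and 0.279 times (0.034 to 1.008). Beyond 30 Mb each bin held 8 pairs or fewer, at 0.65 to 3.19 times, with intervals that all included 1. They also shared 8 wild-type and 6 knockout pairs, of the 15 and 12 that GL456383.1 had with any other contig. With chromosome 1 they had only 14 and 12 pairs in the compared part of the wild-type library and 22 and 16 in that of the knockout library.

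JH584304.1 had the same top bin on chromosome 2, with 202 pairs, 6.85 times (5.94 to 7.87), and stayed at 2.37 to 5.78 times from the start up to 25 Mb, was at 0.907 times from 25 to 30 Mb and 0.794 times from 30 to 35 Mb, and was higher again from 35 to 40 Mb, at 1.52 times (1.33 to 1.73). On chromosome 1 of the same library it was at 2.7 times from 3 to 5 Mb, the start of the assembled sequence. It fell to 0.464 times from 100 to 105 Mb and 0.243 times from 190 to 195 Mb. It thus had an excess at the start of both chromosomes. GL456233.1, of chromosome X, was also above the expected number from 5 to 10 Mb of both, from 17 pairs each. It was at 2.63 times (1.53 to 4.2) on chromosome 1 and 2.1 times (1.23 to 3.37) on chromosome 2. Its intervals from the first assembled base up to position 5 Mb of both included 1. The 5 contigs with their top bin at 85 Mb of chromosome 1 had 0.738% to 1.14% of their pairs on chromosome 2.

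**Figure D5:**
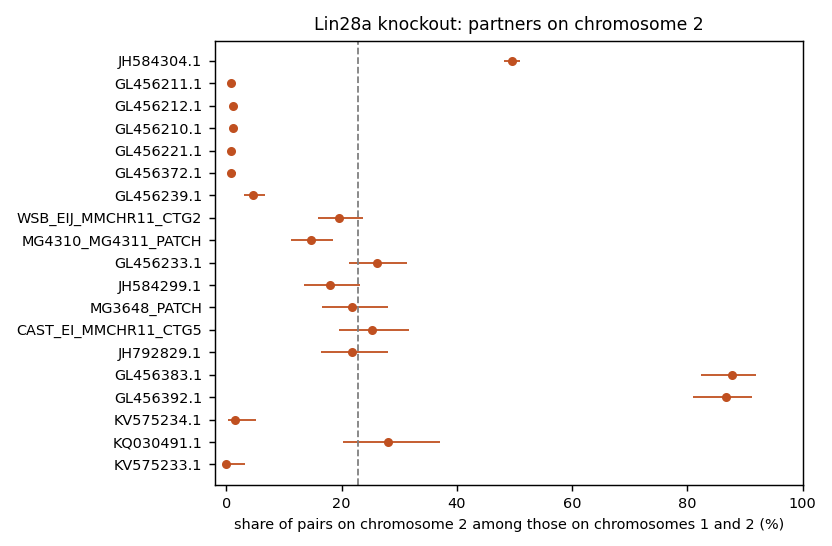
Share of pairs on chromosome 2 among those on chromosomes 1 and 2, for contigs with at least 100 such pairs in the knockout library, with 95% exact binomial intervals. The dashed line is the share of assembled chromosomes, at 22.9%, and 3 contigs lie far to its right while the contigs with a peak on chromosome 1 lie near 0.

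Patches of chromosome 1 have a known place. KV575234.1, which replaces sequence in Rims1, had its top bin at 21 Mb in both libraries, with 23 wild-type pairs, 13.03 times the expected number (8.26 to 19.6), and 19 knockout pairs, 12.2 times (7.36 to 19.1), 1 short of the minimum of 20. Of its wild-type ends, 48.6% lay on 1 restriction fragment. KV575233.1, a patch with Traf5, Slc30a1 and Nek2, lay beyond the compared part and had its top bin at 192 Mb in the knockout library, with 24 of 111 pairs, and none on chromosome 2 (0 of 111, upper limit 3.27%).

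Pairs between different contigs were held in full, 1932 in wild-type and 1573 in knockout cells, and grouped the unplaced contigs by chromosome. Where both contigs had an assigned chromosome it was the same one in 968 of 984 wild-type pairs, 98.4% (97.4 to 99.1), and in 759 of 772 knockout pairs, 98.3% (97.1 to 99.1). Most of these pairs were among the 4 unlocalized contigs of chromosome 1, whose counts are given above. The share therefore describes mainly that chromosome and is no measure for chromosome X alone. Of 20 unplaced contigs with pairs, 12 had at least 10 pairs with assigned contigs in each library. Of these, 11 had more than 50% of them, by the lower limit of the interval, on the same chromosome in both libraries. The exception was JH584304.1, whose most frequent chromosome was 15, with 13 of 62 wild-type and 20 of 57 knockout pairs.

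Of the 11, 8 went to chromosome X, through GL456233.1. GL456379.1 had 206 wild-type and 162 knockout pairs with it, GL456367.1 had 79 and 78, GL456394.1 had 70 and 54, and GL456382.1 had 46 and 42. GL456389.1, GL456381.1, GL456390.1 and GL456396.1 had 34 and 27, 29 and 23, 13 and 14, and 10 and 14. These contigs also paired with each other, as GL456379.1 with GL456382.1 (30 and 24 pairs) and GL456367.1 with GL456382.1 (20 and 20). The 9 contigs shared 661 and 559 pairs, a scaled ratio of 1.1 (0.981 to 1.23). Between them and the 5 contigs with the shared top bin there were 2 wild-type pairs and 0 knockout pairs. GL456233.1 carries Vamp7, a vesicle fusion protein gene, Spry3, an inhibitor of receptor tyrosine kinase signalling, and Tmlhe, a carnitine synthesis gene. Of its ends in pairs with chromosome 1, 89 and 79 lay in Tmlhe and 15 and 12 in Vamp7.

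The other 3 of the 11 were GL456372.1, with chromosome 1 as above, and GL456368.1 and GL456378.1, with chromosome 4. These last had 32 and 28 pairs and 32 and 17 pairs with the chromosome 4 patch MG4310_MG4311_PATCH. GL456359.1 had 12 wild-type and 8 knockout pairs with assigned contigs, all of chromosome 4. GL456385.1 and GL456387.1 shared 10 and 7 pairs and had no more than 2 with assigned contigs.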

How the data were processed

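Hi-C libraries, 1 per genotype, were analysed from the deposited lists of valid pairs. The authors' processing notes name CASAVA 1.8, Bowtie2, HiC-Pro and mm10. The deposited lists hold, for both ends of a pair, where it mapped and on which restriction fragment, the summed distance to the restriction sites in bases, and a mapping quality score, which ranged from 11 to 42. No pair with a contig end was repeated (0 in both libraries), and other pairs were not checked for repeats. The values counted here are whole pairs, with no normalization by the authors. Both lists ended within a line, which was left out. The lists are sorted, so pairs between contigs were complete, and pairs of contigs with chromosomes were held for part of chromosome 1 (wild-type) or for chromosome 1 and part of chromosome 2 (knockout). The remaining chromosomes were not analysed here.

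Contig names were matched to RefSeq sequences of GRCm38.p6 by their restriction fragment numbers (74 of 87 matched), which gave class, chromosome, length and genes. The other 13, with few ends, kept their name only. Copies on chromosomes were found with minimap2 2.31-r1302 (preset asm20), and fragments were compared with BLAST+ 2.17.0. Contigs were to be named where they had at least 100 pairs over both libraries, and described in detail where they passed the ratio or the peak rule. Genes were to be the protein-coding ones of these contigs and their family members in the top bin. JH584304.1, contigs named for pairs with chromosome 2, with other contigs or within themselves, and pseudogenes were chosen after their values were seen.

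Counts have exact Poisson intervals, shares exact binomial (Clopper-Pearson) intervals, and ratios intervals from the exact binomial split, all at 95%. They cover counting error only, since amplified reads without molecular identifiers are not independent molecules. Ratio and peak rules were applied unchanged to 100 kb windows of assembled chromosomes as background, and were tested on simulated data. Contigs, lists and rules were chosen with earlier results of these data known. Alternatives were mapping quality 30, other scalings, the smaller run of each library, each fragment pair counted 1 time, and other limits and bin widths. Leaving out homologous positions was added after seeing the data. Analyses used Python 3.11.15, pandas 2.3.3, NumPy 2.4.6, SciPy 1.17.1 and Matplotlib 3.10.9.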

Additional observations from a re-analysis of the deposited data

How the results depend on the processing

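The count of contigs past the ratio rule was 0 of 16 and stayed 0 with a ratio limit of 2, a minimum of 50 pairs, each fragment pair counted 1 time, other scalings and the smaller runs. It was 1, JH584299.1, of 15 contigs tested with mapping quality of 30 or more at both ends, and 1 of 16, the same contig, with a lower ratio limit, which 13.3% of the windows of other chromosomes passed. The ratio of all contig pairs, 1.06, was 1.1 when scaled without chromosomes 6 and 8 and 1.01 over the smaller runs. The smaller runs hold fewer pairs and came from different instruments. Over these runs 4 contigs had a peak on chromosome 1, 0 of them in both libraries, against 7 and 6. Peaks numbered 7 or 8 under mapping quality 30, other bin widths, a limit of 5 times, each fragment pair counted 1 time and without homologous positions. In the knockout library 7 contigs had a chromosome 2 share above the expected one, and 4 with mapping quality of 30 or more. Of 142 further values of single contigs under these alternatives, 121 stayed within the interval of the reported value and 21 did not, 15 of them over the smaller runs. No value could be given without 1 replicate, since each group has 1 library. No paired analysis was possible because the lists carry no replicate numbers. Depth limits contigs with few pairs, whose partner bins hold few pairs each.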
